A study of Mus musculus with 27 samples.

Results

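A set of 10 genes of the growth hormone and insulin-like growth factor (IGF) axis were followed in hepatocyte RNA from 9 inbred mouse strains. They were the rows whose Ensembl identifier carries the GENCODE M21 symbol Ghr, Stat5b, Igf1, Igfals, Igfbp1, Igfbp2, Socs2, Cish, Bcl6 or Cux2, and all 10 were found among the 43346 genes of the count table. Each strain was represented by 3 libraries from female mice aged 12 weeks, with no treatment named in the labels. The strains CAST/EiJ, PWK/PhJ and WSB/EiJ are wild-derived. The others are classical laboratory strains: A/J, NZO/HlLtJ (a model of obesity and diabetes), NOD/ShiLtJ (a model of autoimmune diabetes), 129S1/SvImJ, DBA/2J and the reference strain C57BL/6J. The study as a whole related strain differences in expression to histone marks and DNA methylation. The labels call the libraries biological replicates, and p-values measure the spread between these libraries.

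Growth hormone from the pituitary binds its receptor on hepatocytes, and the kinase JAK2 then activates STAT5 proteins, which switch on Igf1, Igfals, Socs2 and Cish. The liver supplies most circulating IGF1, which travels bound to IGF binding proteins. Pulses of growth hormone in males and its steadier presence in females set the sex differences of many liver genes, in part through the repressor BCL6, favoured in males, and CUX2, favoured in females.

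Short stretches of promoter are shown first because they hold letters that match motifs STAT5 and insulin signalling are known to use. The RefSeq promoter table (assembly GRCm38.p6, 250 bases before to 50 after a start site) held windows for 9 of the 10 genes, 16 windows in all, without Socs2. The STAT5 motif searched was TTCNNNGAA, which reads the same on both strands, and it occurred in 8.3% of the 32851 windows of that table. Windows with 2 or more matches made up 0.457%. The 5 windows with a match among these genes belonged to Cish, Bcl6 and Igfals. Capitals mark the matches of 3 windows, and a second Igfals window and a second Bcl6 window, each with 1 match (TTCTCAGAA), are not printed.
Cish, chr9:107296657-107296680, plus strand, at the start site, exonic in the annotation: ttTTCCTGGAAagTTCTTGGAAat
Bcl6, chr16:23981353-23981461, minus strand, before the second RefSeq start site: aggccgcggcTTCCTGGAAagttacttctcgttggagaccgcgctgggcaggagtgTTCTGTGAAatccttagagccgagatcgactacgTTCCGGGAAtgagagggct
Igfals, chr17:24878163-24878191, plus strand, before a RefSeq start site: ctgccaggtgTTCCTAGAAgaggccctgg
The Igfbp1 promoter held both forms of the insulin response sequence, CAAAACAA and CAAAATAA, searched on both strands and present in 2.51% and 1.66% of all windows. They stand in opposite directions and are in capitals below.
Igfbp1, chr11:7197669-7197706, plus strand: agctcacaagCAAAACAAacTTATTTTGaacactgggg
A match describes these letters only, and binding was not measured here.

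Library totals ran from 17015956 to 35078511 estimated counts, and 14482 genes, which held 99.97% of the counts, passed the filter on low counts, all 10 axis genes among them. Levels are given as CPM, counts scaled to the size of the library, and 1 count equalled 0.0253 to 0.0516 CPM. The label of hepatocytes was met by the markers: the 10 hepatocyte markers were all tested and summed to 101000 to 321000 CPM per library. Of these 10, 6 differed among strains, beside 74.2% of all genes tested. Their sum was lowest in CAST/EiJ (101000 to 114000 CPM) and had its highest median in A/J (234000 to 321000 CPM). The same strains were at the ends of the Ghr order below, and any link was not tested. Sums of the other lists were 29.9 to 370 CPM for 8 Kupffer cell markers (liver macrophages), 50.3 to 645 CPM for 8 liver endothelial markers, 17.6 to 83.4 CPM for 8 stellate cell markers, 0.829 to 12 CPM for 8 lymphocyte markers and 1.57 to 9.64 CPM for 5 cholangiocyte markers (bile duct cells). No marker was at 0 in all libraries. All 8 Kupffer and all 8 endothelial markers differed among strains, beside 74.2% of all genes tested. PWK/PhJ replicate 1 held the highest sums of both, 370 and 645 CPM. In bulk RNA, fewer cells of a type and less RNA per cell cannot be told apart.

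Among the 9 strains, 7 of the 10 genes differed (edgeR quasi-likelihood F test, adjusted p under 0.05), beside 74.2% of all genes tested. They were Ghr, Stat5b, Igf1, Igfbp1, Igfbp2, Socs2 and Cux2, while Igfals, Cish and Bcl6 had adjusted p of 0.0545, 0.0647 and 0.0627. In the 36 pairs of strains, 55 of 360 gene and pair tests passed, beside 23.4% of such tests over all genes. Of 90 tests of a strain against the mean of the other 8, 19 passed, beside 24% over all genes. In 12 of them the gene was higher in the strain (14.1% of tests over all genes) and in 7 it was lower (9.94%). Igfbp2 supplied 5 of the 19 and 15 of the 55, more than any other of the 10 genes. Of the 55 pair calls, 29 passed in all 27 fits that left out 1 library, 12 of them for Igfbp2, 5 for Igfbp1, 4 for Ghr and 0 for Bcl6. The share of calls kept in this way over all genes was not computed. Per kilobase of exon, Igfbp2 had the highest level of the 10 genes (mean 313 CPM per kilobase), followed by Igfbp1 (104), Igfals (78.7), Igf1 (71.3), Ghr (46.5) and Stat5b (11.7), while Socs2, Cish, Bcl6 and Cux2 lay between 1.63 and 2.03. The median range between the highest and lowest strain was 2.48 on the log2 scale for the 10 genes and 1.16 for all genes tested.

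**Figure D1:**
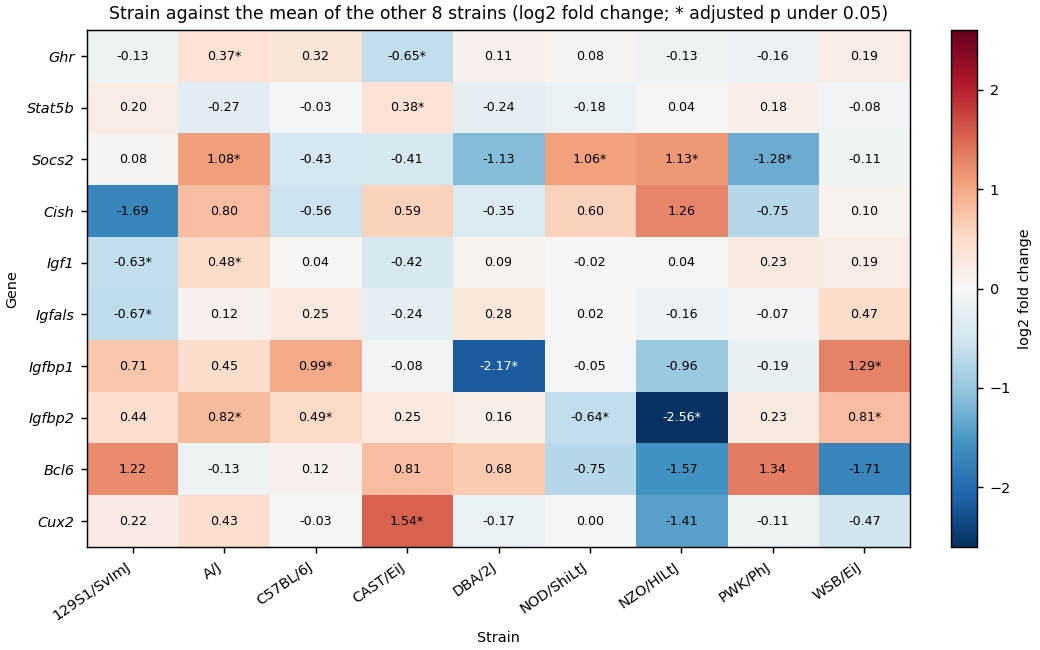
Log2 fold change of each gene (rows) in each strain (columns) against the mean of the other 8 strains, from the fit to all 27 libraries; red is higher, blue lower, and an asterisk marks an adjusted p under 0.05. Igfbp2 in NZO/HlLtJ (-2.56) and Igfbp1 in DBA/2J (-2.17) are the darkest blue cells, and Cux2 in CAST/EiJ (1.54) is the darkest red.

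Ghr encodes the growth hormone receptor (ENSMUSG00000055737, chr15:3317760-3583492, minus strand, GRCm38). It was abundant in all strains, and CAST/EiJ had the least. Mean ± SD (n = 3 in each strain, here and below) was 521 ± 73 in A/J, 503 ± 97.5 in C57BL/6J, 466 ± 60.7 in WSB/EiJ, 443 ± 93.5 in DBA/2J, 434 ± 28.9 in NOD/ShiLtJ, 383 ± 9.99 in 129S1/SvImJ, 382 ± 40.6 in NZO/HlLtJ, 376 ± 66.2 in PWK/PhJ and 276 ± 44.5 in CAST/EiJ CPM. The CAST/EiJ libraries held 321, 277 and 232 CPM, and the highest of them overlapped only the lowest PWK/PhJ library among all other libraries. Against the other 8 strains, CAST/EiJ was lower by a log2 fold change of -0.65 ± 0.14 (SE, edgeR, adjusted p = 0.00148). It was lower than A/J, C57BL/6J, DBA/2J, NOD/ShiLtJ and WSB/EiJ in the pairwise tests, with log2 differences of 0.65 to 0.91 in size. Of these calls 1 depended on a library, that against NOD/ShiLtJ (without CAST/EiJ replicate 5, adjusted p = 0.0605). The A/J libraries held 516, 450.3 and 596 CPM, and A/J was higher than the other 8 by 0.37 ± 0.13 (adjusted p = 0.0407). That call was lost in 12 of the 27 fits that left out a library, with adjusted p of up to 0.255 without A/J replicate 3, and also with no filter on low counts (0.36, adjusted p = 0.0819). No step between neighbouring strains in the order passed the test.

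Stat5b encodes the signal transducer that the receptor activates (ENSMUSG00000020919, chr11:100780731-100850724, minus strand). Its order put CAST/EiJ at the top, where Ghr had it at the bottom. Means were 81.3 ± 7.11 in CAST/EiJ, 72.9 ± 3.33 in 129S1/SvImJ, 71.9 ± 4.63 in PWK/PhJ, 65.8 ± 2.92 in NZO/HlLtJ, 63.2 ± 13.6 in C57BL/6J, 61.4 ± 3.04 in WSB/EiJ, 57.5 ± 2.59 in NOD/ShiLtJ, 55.5 ± 7.95 in DBA/2J and 54.5 ± 11.5 in A/J CPM. The CAST/EiJ libraries held 89.2, 75.5 and 79.3 CPM and those of A/J 67.5, 50.3 and 45.7 CPM, with no overlap. CAST/EiJ was higher than the other 8 by a log2 fold change of 0.38 ± 0.11 (edgeR, adjusted p = 0.0109), a call lost without CAST/EiJ replicate 1 (0.31, adjusted p = 0.0963). CAST/EiJ was also higher than A/J, DBA/2J, NOD/ShiLtJ and WSB/EiJ singly, and 129S1/SvImJ was higher than A/J. Leaving out a library kept the call against A/J and that against DBA/2J in all 27 fits and lost that against NOD/ShiLtJ in 1 (without CAST/EiJ replicate 1, adjusted p = 0.0691). The difference from WSB/EiJ (0.41) lost its call in 21 of the 27 fits, with adjusted p of up to 0.164, and that of 129S1/SvImJ from A/J (0.42) in 9, with up to 0.175 without A/J replicate 3. Without a filter on low counts both were lost (adjusted p = 0.106 and 0.0985), and the difference of 129S1/SvImJ from A/J was 0.36 (adjusted p = 0.158) with the means of the Kupffer and endothelial markers in the model. The range of 1.51-fold was the narrowest of the 10 genes. Deposited counts of Stat5b were not whole numbers in all 27 libraries, as for its closely related neighbour Stat5a. Which genes the divided reads could also come from is not given in the sources used here, so the split between the pair is uncertain. Stat5a averaged 12.2 CPM and differed among strains as well (adjusted p = 0.00497), with its highest mean in C57BL/6J (16.2 ± 4.20) and its lowest in PWK/PhJ (8.13 ± 1.81).

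Igf1, the main endocrine product of the pathway (ENSMUSG00000020053, chr10:87858265-87937042, plus strand), was lowest in 129S1/SvImJ and highest in A/J. Means were 934 ± 185 in A/J, 799.9 ± 123 in PWK/PhJ, 781 ± 355 in WSB/EiJ, 731 ± 107 in DBA/2J, 711 ± 48.3 in NZO/HlLtJ, 709.7 ± 101 in C57BL/6J, 684 ± 49.8 in NOD/ShiLtJ, 535 ± 24.7 in CAST/EiJ and 470.4 ± 44.7 in 129S1/SvImJ CPM. The 129S1/SvImJ libraries held 516, 426 and 469.6 CPM and the A/J libraries 874, 787 and 1141 CPM, with no overlap. WSB/EiJ was split: replicates 2 and 3 held 982 and 989 CPM and replicate 4 held 371 CPM, the lowest of all 27 libraries. 129S1/SvImJ was lower than the other 8 by a log2 fold change of -0.63 ± 0.19 (edgeR, adjusted p = 0.0173) and A/J was higher by 0.48 ± 0.17 (adjusted p = 0.0427). Singly, 129S1/SvImJ was lower than A/J (-0.99 ± 0.24, adjusted p = 0.00403), PWK/PhJ and WSB/EiJ, and A/J was higher than CAST/EiJ. With a library left out the first held in all 27 fits, and the others were lost in 3, 4 and 2 fits, with adjusted p of up to 0.0785, 0.154 and 0.0883.

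The strain effect on Igf1 (adjusted p = 0.0266) had adjusted p of 0.0781, 0.0621, 0.0612 and 0.0515 without 129S1/SvImJ replicate 2, 129S1/SvImJ replicate 3, A/J replicate 3 and CAST/EiJ replicate 4, and 0.000167 without WSB/EiJ replicate 4. The 129S1/SvImJ call was lost without replicate 2 (-0.56, adjusted p = 0.0873) or replicate 3 (-0.63, adjusted p = 0.0565), and the A/J call in 16 of the 27 fits, among them that without A/J replicate 3 (0.31, adjusted p = 0.309).

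Igfals encodes the acid-labile subunit, which holds IGF1 and its binding protein in a large circulating complex (ENSMUSG00000046070, chr17:24865997-24882010, plus strand). As with Igf1, its lowest mean was that of 129S1/SvImJ. Means were 326 ± 126 in WSB/EiJ, 291 ± 89.1 in DBA/2J, 286 ± 47.3 in C57BL/6J, 264 ± 67.5 in A/J, 248 ± 45.8 in NOD/ShiLtJ, 234 ± 73.9 in PWK/PhJ, 222 ± 20.1 in NZO/HlLtJ, 211 ± 15.3 in CAST/EiJ and 162 ± 27.2 in 129S1/SvImJ CPM. The 129S1/SvImJ libraries held 164, 134 and 188 CPM, and the WSB/EiJ libraries 453, 326 and 201 CPM, with replicate 4 again the low one. 129S1/SvImJ was lower than the other 8 by a log2 fold change of -0.67 ± 0.21 (edgeR, adjusted p = 0.0223), and lower than C57BL/6J, DBA/2J and WSB/EiJ singly (-0.82, -0.85 and -1.01), calls lost in 3, 3 and 1 of the 27 fits that left out a library (adjusted p up to 0.108, 0.151 and 0.0679). The 129S1/SvImJ call was lost without its replicate 1 (-0.67, adjusted p = 0.0658) or replicate 2 (-0.55, adjusted p = 0.127). Across all strains the test did not pass (adjusted p = 0.0545), but it did without any 1 of 6 libraries: A/J replicates 1 and 3, DBA/2J replicate 4, PWK/PhJ replicates 1 and 3 and WSB/EiJ replicate 4 (adjusted p from 0.0104 to 0.047).

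The 129S1/SvImJ libraries had Kupffer sums of 37.2 to 77.1 CPM, with the lowest median of the 9 strains (41.1 CPM), and endothelial sums of 77.3 to 151 CPM, with the lowest median after NZO/HlLtJ (90.8 against 61.8 CPM). Both ranges overlapped those of NZO/HlLtJ, CAST/EiJ, DBA/2J, NOD/ShiLtJ and WSB/EiJ. The A/J libraries had Kupffer sums of 120 to 254 CPM and endothelial sums of 100 to 212 CPM. With both marker means in the model, the 129S1/SvImJ difference was -0.50 for Igf1 (adjusted p = 0.0899) and -0.42 for Igfals (adjusted p = 0.162), and the strain effect on Igf1 had an adjusted p of 0.16. The A/J difference was then 0.40 for Igf1 (adjusted p = 0.223) and 0.32 for Ghr (adjusted p = 0.177), so neither passed. Of the single pairs in that model, 129S1/SvImJ against A/J, PWK/PhJ and WSB/EiJ had Igf1 differences of -0.80, -0.46 and -0.64 (adjusted p = 0.076, 0.321 and 0.07), and A/J against CAST/EiJ had 0.63 (adjusted p = 0.171). For Igfals, 129S1/SvImJ differed by -0.28 from C57BL/6J and by -0.70 from DBA/2J (adjusted p = 0.603 and 0.0501), and the call against WSB/EiJ was the only one of these 7 that passed. The part of other cells in these differences was not tested beyond that.

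**Figure D2:**
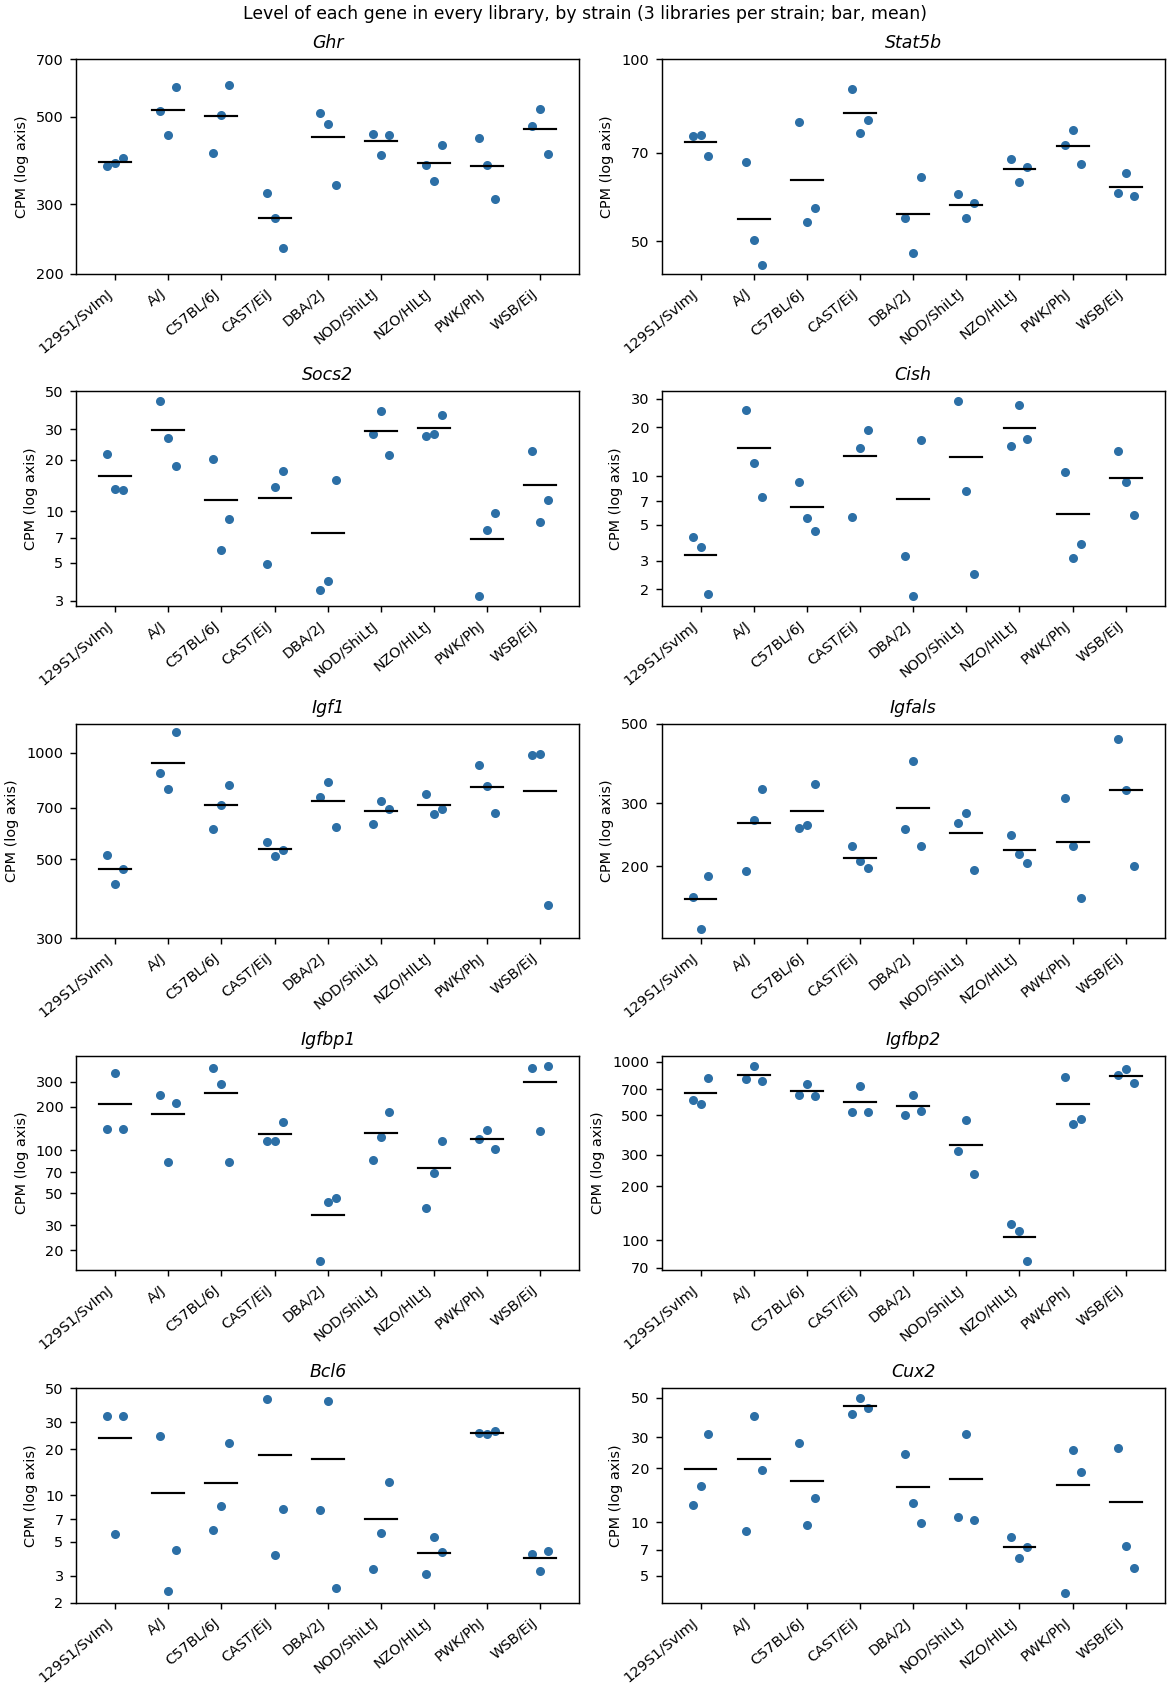
CPM (log axis, scaled separately in each panel) of the 10 genes in each of the 27 libraries, by strain; points are libraries and bars are means of 3. The 3 NZO/HlLtJ points of Igfbp2 lie between 76.7 and 124 CPM, below all other libraries, while the points of Cish and Bcl6 spread widely within most strains.

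Igfbp2, a binding protein that the liver secretes in quantity (ENSMUSG00000039323, chr1:72824503-72852474, plus strand), had the strongest strain effect of the 10 genes (F = 21.03, adjusted p = 6.44e-08). NZO/HlLtJ stood far below all other strains and NOD/ShiLtJ came next. Means were 842 ± 94.7 in A/J, 835 ± 78.3 in WSB/EiJ, 684 ± 60.4 in C57BL/6J, 664 ± 124 in 129S1/SvImJ, 591 ± 118 in CAST/EiJ, 582 ± 208 in PWK/PhJ, 560.4 ± 78.9 in DBA/2J, 341 ± 121 in NOD/ShiLtJ and 104 ± 24.6 in NZO/HlLtJ CPM. The NZO/HlLtJ libraries held 124, 113 and 76.7 CPM, and those of NOD/ShiLtJ 315, 472 and 235 CPM. The 3 NZO/HlLtJ libraries lay below all 24 others, and the NOD/ShiLtJ libraries lay below those of 6 strains and overlapped only PWK/PhJ.

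At the other end, the A/J libraries held 797, 951 and 778 CPM and the WSB/EiJ libraries 841, 911 and 755 CPM. C57BL/6J followed with 653, 754 and 645 CPM and 129S1/SvImJ with 607, 579.5 and 807 CPM. In the middle of the order, CAST/EiJ held 522, 727 and 523, PWK/PhJ 821, 448 and 476 and DBA/2J 500.4, 649.7 and 531 CPM, and these 3 strains overlapped.

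Against the other 8 strains, Igfbp2 in NZO/HlLtJ was lower by a log2 fold change of -2.56 ± 0.23 (edgeR, adjusted p = 4.35e-09), 104 against 637 CPM. It was lower in NZO/HlLtJ than in each of the other 8 strains singly, with log2 differences from 1.71 (NOD/ShiLtJ, adjusted p = 1.6e-05) to 3.01 (A/J, adjusted p = 4.45e-09). NOD/ShiLtJ was lower than the other 8 by -0.64 ± 0.19 (adjusted p = 0.0166) and lower than each of the 7 strains above it singly. A/J, WSB/EiJ and C57BL/6J were higher, by 0.82 ± 0.17, 0.81 ± 0.17 and 0.49 ± 0.17 (adjusted p = 0.000764, 0.000901 and 0.0437). Of the 8 steps between neighbouring strains, only DBA/2J to NOD/ShiLtJ (adjusted p = 0.0349) and NOD/ShiLtJ to NZO/HlLtJ passed, and among the other 9 genes no such step did. How often such steps pass over all genes was not computed.

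The NZO/HlLtJ difference ran from -2.70 to -2.38 when any library was left out. The NOD/ShiLtJ call was lost without its replicate 1 (-0.59, adjusted p = 0.0778) or replicate 3 (-0.43, adjusted p = 0.155), and the C57BL/6J call in 17 of the 27 fits. NOD/ShiLtJ against CAST/EiJ, DBA/2J and PWK/PhJ singly was lost in 3 fits each (adjusted p up to 0.113, 0.172 and 0.195), the last at a log2 difference of -0.44 without PWK/PhJ replicate 1 against -0.77. NZO/HlLtJ had the lowest range of endothelial marker sums, 50.3 to 92.2 CPM, and with Kupffer and endothelial markers in the model its Igfbp2 difference was -2.35 (adjusted p = 1.11e-08). In that model the A/J and C57BL/6J differences were 0.55 (adjusted p = 0.0572) and 0.11 (adjusted p = 0.78). The call of NOD/ShiLtJ against C57BL/6J was lost in it (log2 difference 0.62 between C57BL/6J and NOD/ShiLtJ, adjusted p = 0.0969), as was that against PWK/PhJ (-0.47, adjusted p = 0.16). C57BL/6J had Kupffer sums of 178 to 239 CPM.

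Igfbp1, a binding protein that insulin represses (ENSMUSG00000020429, chr11:7197782-7202546, plus strand), spanned the widest range of the 10 genes, 8.34-fold, narrowly ahead of Igfbp2 (8.19-fold). That rank turned on a library: the log2 range of Igfbp1 was 2.59 without DBA/2J replicate 2, against 3.06. The log2 range of Igfbp2 was at least 2.82 with any library left out. DBA/2J was lowest, and WSB/EiJ and C57BL/6J were highest. Means were 299.7 ± 142 in WSB/EiJ, 248 ± 149 in C57BL/6J, 209.5 ± 119 in 129S1/SvImJ, 178 ± 84.4 in A/J, 131 ± 50.4 in NOD/ShiLtJ, 129 ± 23.5 in CAST/EiJ, 120.2 ± 18.5 in PWK/PhJ, 74.8 ± 38.5 in NZO/HlLtJ and 35.5 ± 16.1 in DBA/2J CPM. The DBA/2J libraries held 16.98, 43.2 and 46.3 CPM. They overlapped only the lowest NZO/HlLtJ library, among NZO/HlLtJ libraries at 39.2, 69.4 and 116 CPM. The WSB/EiJ libraries held 374, 136 and 388 CPM and the C57BL/6J libraries 373, 288 and 83.2 CPM, each with 1 low library.

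The remaining strains were in between. The libraries of CAST/EiJ and PWK/PhJ differed by 1.36-fold at most, the narrowest of the 9 strains, and those of the other 7 strains by 2.17-fold to 4.49-fold. The 129S1/SvImJ libraries held 141, 347 and 141 CPM, A/J 240.2, 82.1 and 212, NOD/ShiLtJ 85.4, 123 and 185, CAST/EiJ 115, 116 and 156 and PWK/PhJ 119.9, 139 and 102 CPM. Against the other 8, DBA/2J was lower by a log2 fold change of -2.17 ± 0.46 (edgeR, adjusted p = 0.00118), WSB/EiJ was higher by 1.29 ± 0.34 (adjusted p = 0.0072) and C57BL/6J was higher by 0.99 ± 0.35 (adjusted p = 0.0427). Singly, DBA/2J was lower than 7 strains, all but NZO/HlLtJ, and NZO/HlLtJ was lower than 129S1/SvImJ, C57BL/6J and WSB/EiJ. The DBA/2J difference ran from -2.41 to -1.83 with any library left out, while the WSB/EiJ call was lost without its replicate 2 (1.10, adjusted p = 0.0609) or replicate 4 (1.06, adjusted p = 0.0701) and the C57BL/6J call in 11 of 27 fits, with 0.57 without C57BL/6J replicate 1 (adjusted p = 0.361). With Kupffer and endothelial markers in the model the C57BL/6J difference was 1.55 (adjusted p = 0.0408), and C57BL/6J had the highest median Kupffer sum of the 9 strains, 221 CPM. Lost in that model were 129S1/SvImJ against NZO/HlLtJ (1.36, adjusted p = 0.0861), CAST/EiJ against DBA/2J (1.60, adjusted p = 0.0581) and DBA/2J against PWK/PhJ (-1.86, adjusted p = 0.0702). Of the single pairs, DBA/2J against CAST/EiJ, NOD/ShiLtJ and PWK/PhJ was lost in 1, 2 and 1 fits, among them in each case the fit without DBA/2J replicate 2, and NZO/HlLtJ against 129S1/SvImJ and C57BL/6J in 4 and 3. The log2 difference between 129S1/SvImJ and NZO/HlLtJ was 0.91 without 129S1/SvImJ replicate 2 (adjusted p = 0.249), against 1.49.

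Other genes under insulin and FOXO1 control, a list of 9, can be set beside Igfbp1. Of these, 7 of 9 differed among strains, beside 74.2% of all genes, and the median range was 1.29 on the log2 scale. G6pc and Pck1, both enzymes of glucose production, had their highest means in WSB/EiJ (1092 ± 156 and 2426 ± 648 CPM) and their lowest in NZO/HlLtJ (387 ± 194 and 640.5 ± 470 CPM), with adjusted p of 0.00905 and 0.0177. Ppargc1a, a coactivator of that program, was also highest in WSB/EiJ (11.9 ± 4.54 CPM) and lowest in NOD/ShiLtJ (5.37 ± 1.52 CPM, adjusted p = 0.0143). Srebf1, the lipogenic regulator that insulin induces, was highest in DBA/2J (811 ± 59.6 CPM), the strain lowest in Igfbp1, and lowest in 129S1/SvImJ (384.5 ± 54.0 CPM, adjusted p = 0.00888). PWK/PhJ was nearly level with DBA/2J in Srebf1 (808 ± 331 CPM) and was the seventh of the 9 strains in Igfbp1.

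Socs2 encodes a suppressor of growth hormone signalling that STAT5 itself induces (ENSMUSG00000020027, chr10:95385362-95417180, minus strand). NZO/HlLtJ, A/J and NOD/ShiLtJ formed the upper end and PWK/PhJ and DBA/2J the lower. Means were 30.7 ± 4.95 in NZO/HlLtJ, 29.7 ± 13 in A/J, 29.3 ± 8.55 in NOD/ShiLtJ, 16.1 ± 4.69 in 129S1/SvImJ, 14.3 ± 7.31 in WSB/EiJ, 11.9 ± 6.29 in CAST/EiJ, 11.7 ± 7.45 in C57BL/6J, 7.50 ± 6.60 in DBA/2J and 6.92 ± 3.39 in PWK/PhJ CPM. The upper strains held 27.6, 28.02 and 36.4 CPM in NZO/HlLtJ, 43.9, 26.9 and 18.4 in A/J and 28.2, 38.3 and 21.3 in NOD/ShiLtJ. The lower ones held 3.19, 7.73 and 9.82 CPM in PWK/PhJ and 3.46, 3.92 and 15.1 in DBA/2J, all below every library of the 3 upper strains.

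The strains in the middle of the Socs2 order overlapped both ends or one another. The 129S1/SvImJ libraries held 21.5, 13.5 and 13.3 CPM, WSB/EiJ 22.6, 8.67 and 11.6, CAST/EiJ 4.94, 13.9 and 17.1 and C57BL/6J 20.1, 5.91 and 8.96 CPM. Against the other 8, NZO/HlLtJ, A/J and NOD/ShiLtJ were higher by log2 fold changes of 1.13 ± 0.35, 1.08 ± 0.36 and 1.06 ± 0.36 (edgeR, adjusted p = 0.0209, 0.0297 and 0.0324), and PWK/PhJ was lower by -1.28 ± 0.44 (adjusted p = 0.0384). The 6 pairs between the 3 upper strains and the 2 lower strains all passed, with log2 differences of 1.94 to 2.14 in size, and no other pair did. Those that involve DBA/2J were 2.99 to 3.06 in size without DBA/2J replicate 4, its high library. A/J against DBA/2J was lost without A/J replicate 1 (1.56, adjusted p = 0.0526), DBA/2J replicate 2 (1.62, adjusted p = 0.0558) or DBA/2J replicate 3 (1.66, adjusted p = 0.053), and DBA/2J against NOD/ShiLtJ without DBA/2J replicate 2 or 3 (-1.60 and -1.64, adjusted p = 0.058 and 0.055).

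Each Socs2 call against the other 8 strains was lost in at least 1 fit that left out a library of its strain. Without A/J replicate 2, NOD/ShiLtJ replicate 1 or PWK/PhJ replicate 2 the difference itself was larger in size than with all libraries. The calls were lost without NZO/HlLtJ replicate 3 (0.99, adjusted p = 0.102), without A/J replicate 1 or 2 (0.68 and 1.15, adjusted p = 0.277 and 0.058), without NOD/ShiLtJ replicate 1 or 2 (1.08 and 0.82, adjusted p = 0.0755 and 0.195) and without PWK/PhJ replicate 1 or 2 (-0.94 and -1.36, adjusted p = 0.18 and 0.0803). With Kupffer and endothelial markers in the model, the NZO/HlLtJ difference was 0.74 (adjusted p = 0.196), that of NOD/ShiLtJ 0.97 (adjusted p = 0.0517) and that of PWK/PhJ -0.90 (adjusted p = 0.243), while A/J was at 1.79 (adjusted p = 0.0059). Of the 6 pairs, NZO/HlLtJ against PWK/PhJ was lost in that model (1.46, adjusted p = 0.151). DESeq2 gave 1.09 for A/J (adjusted p = 0.0519) and 1.05 for NOD/ShiLtJ (adjusted p = 0.0613), so neither of these calls held with it. PWK/PhJ had endothelial sums of 200 to 645 CPM.

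Cish, a second inhibitor that STAT5 induces (ENSMUSG00000032578, chr9:107296026-107302784, plus strand), had the paired STAT5 matches printed above. Its highest mean was that of NZO/HlLtJ, as for Socs2, and its lowest that of 129S1/SvImJ. Means were 19.98 ± 6.60 in NZO/HlLtJ, 15.01 ± 9.48 in A/J, 13.3 ± 6.99 in CAST/EiJ, 13.2 ± 14 in NOD/ShiLtJ, 9.74 ± 4.31 in WSB/EiJ, 7.25 ± 8.24 in DBA/2J, 6.45 ± 2.45 in C57BL/6J, 5.82 ± 4.10 in PWK/PhJ and 3.24 ± 1.22 in 129S1/SvImJ CPM. The NZO/HlLtJ libraries held 15.4, 27.5 and 17 CPM and those of 129S1/SvImJ 4.19, 3.66 and 1.86 CPM, with no overlap. NOD/ShiLtJ spanned nearly the whole range, with 29.1, 8.07 and 2.47 CPM, and DBA/2J held 3.21, 1.81 and 16.7 CPM. 129S1/SvImJ was lower than NZO/HlLtJ (log2 fold change -2.62 ± 0.76, edgeR, adjusted p = 0.0143) and A/J (-2.21 ± 0.76, adjusted p = 0.0377). The first was lost in 1 of the 27 fits that left out a library and the second in 4, and the second also with Kupffer and endothelial markers in the model (-2.52, adjusted p = 0.0918).

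No test of a strain against the other 8 passed for Cish, and its strain effect (adjusted p = 0.0647) passed when any 1 of 6 libraries was left out: A/J replicate 3, CAST/EiJ replicate 1, DBA/2J replicate 4, NOD/ShiLtJ replicate 1, NOD/ShiLtJ replicate 3 or PWK/PhJ replicate 1 (adjusted p from 0.00757 to 0.0494). Its counts were not whole in 26 libraries. The antisense genes Gm17040 and Gm17041 overlap its exons by 740 bases and held 377 counts in all against 8120 for Cish, and reads of opposite strands were not separated by any step named in the labels.

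Bcl6, a repressor that growth hormone lowers (ENSMUSG00000022508, chr16:23965052-23988852, minus strand), varied more among libraries of a strain than between strains. Means were 25.6 ± 0.571 in PWK/PhJ, 23.7 ± 15.7 in 129S1/SvImJ, 18.3 ± 21.2 in CAST/EiJ, 17.2 ± 20.8 in DBA/2J, 12.1 ± 8.51 in C57BL/6J, 10.4 ± 12.1 in A/J, 7.04 ± 4.56 in NOD/ShiLtJ, 4.24 ± 1.15 in NZO/HlLtJ and 3.90 ± 0.587 in WSB/EiJ CPM. The PWK/PhJ libraries lay close together, at 25.4, 25.1 and 26.2 CPM. So did the low strains WSB/EiJ (4.13, 3.23 and 4.33) and NZO/HlLtJ (3.06, 5.37 and 4.30).

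The other strains each mixed high and low libraries in Bcl6. CAST/EiJ held 42.7, 4.11 and 8.15 CPM, DBA/2J 7.98, 41.03 and 2.49, 129S1/SvImJ 32.6, 5.58 and 32.96 and A/J 24.3, 2.39 and 4.38 CPM. C57BL/6J held 5.95, 8.46 and 21.8 and NOD/ShiLtJ 3.31, 5.68 and 12.1 CPM. The tests of 129S1/SvImJ against WSB/EiJ (log2 fold change 2.61 ± 0.94), PWK/PhJ against WSB/EiJ (2.72 ± 0.94) and NZO/HlLtJ against PWK/PhJ (-2.59 ± 0.92) passed (edgeR, adjusted p = 0.0461, 0.0383 and 0.0427). They were lost in 13, 6 and 9 of the 27 fits that left out a library. With Kupffer and endothelial markers in the model, PWK/PhJ against WSB/EiJ had 3.25 (adjusted p = 0.0511) and NZO/HlLtJ against PWK/PhJ -3.28 (adjusted p = 0.0799). The strain effect (adjusted p = 0.0627) passed without any 1 of 7 libraries, among them A/J replicate 1 (adjusted p = 0.015), DBA/2J replicate 3 (0.0197) and CAST/EiJ replicate 1 (0.0279), each the high library of its strain. The others were 129S1/SvImJ replicate 2, C57BL/6J replicate 4, CAST/EiJ replicate 4 and DBA/2J replicate 4 (adjusted p from 0.0278 to 0.0493).

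Cux2 encodes a homeodomain repressor expressed mainly in female liver (ENSMUSG00000042589, chr5:121856366-122050102, minus strand). CAST/EiJ stood above the rest. Means were 44.8 ± 4.73 in CAST/EiJ, 22.7 ± 15.6 in A/J, 19.9 ± 9.95 in 129S1/SvImJ, 17.4 ± 12 in NOD/ShiLtJ, 17.02 ± 9.56 in C57BL/6J, 16.1 ± 11 in PWK/PhJ, 15.7 ± 7.54 in DBA/2J, 12.97 ± 11.4 in WSB/EiJ and 7.26 ± 0.952 in NZO/HlLtJ CPM. The CAST/EiJ libraries held 40.7, 49.99 and 43.8 CPM, above all 24 others, the nearest being A/J replicate 2 at 39.6 CPM. The NZO/HlLtJ libraries, at 8.21, 6.30 and 7.28 CPM, were close to one another. CAST/EiJ was higher than the other 8 by a log2 fold change of 1.54 ± 0.40 (edgeR, adjusted p = 0.00601), 44.8 against 16.1 CPM, and higher than NZO/HlLtJ (2.63 ± 0.65, adjusted p = 0.00422) and WSB/EiJ (1.79 ± 0.63, adjusted p = 0.0408) singly. With any library left out, the difference from the other 8 ran from 1.46 to 1.67 (highest adjusted p 0.0338). The difference from WSB/EiJ ran from 1.43 without WSB/EiJ replicate 4 to 2.80 without WSB/EiJ replicate 2, and its call was lost without any 1 of the 3 CAST/EiJ libraries or WSB/EiJ replicates 3 and 4 (adjusted p up to 0.146). The test among all strains (adjusted p = 0.0397) was lost without any 1 of 8 libraries, with adjusted p from 0.0508 to 0.119: the 3 of CAST/EiJ, the 3 of NZO/HlLtJ, DBA/2J replicate 3 and WSB/EiJ replicate 3. With the Kupffer and endothelial markers in the model it had an adjusted p of 0.0588, and CAST/EiJ against WSB/EiJ had 1.89 (adjusted p = 0.0535).

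The 10 genes fell apart in how closely libraries of a strain matched. The SD within strains was 0.170 on the log2 scale for Stat5b and 0.216 for Ghr, and 0.88, 1.03 and 1.25 for Cux2, Cish and Bcl6. The median was 0.549 for the 10 genes, 0.285 for all genes tested and 0.211 for the 2159 genes averaging 10 to 20 CPM, the range that holds Cish, Bcl6, Socs2 and Cux2. Counting error alone gave an SD of 0.20 at the lowest Bcl6 count and 0.24 at the lowest Cish count. The highest library of a strain exceeded the lowest more than 2-fold in 8 strains for Cish, in 7 for Cux2 and Igfbp1, in 6 for Socs2 and Bcl6, in 1 for Igf1, Igfals and Igfbp2 and in none for Ghr and Stat5b. The widest such spans were 16.5-fold (Bcl6 in DBA/2J) and 11.8-fold (Cish in NOD/ShiLtJ). Strain accounted for 92.6% of the variance of Igfbp2 and 41.3% of that of Bcl6, with medians of 58.5% over the 10 genes and 66.6% over all genes.

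**Figure D3:**
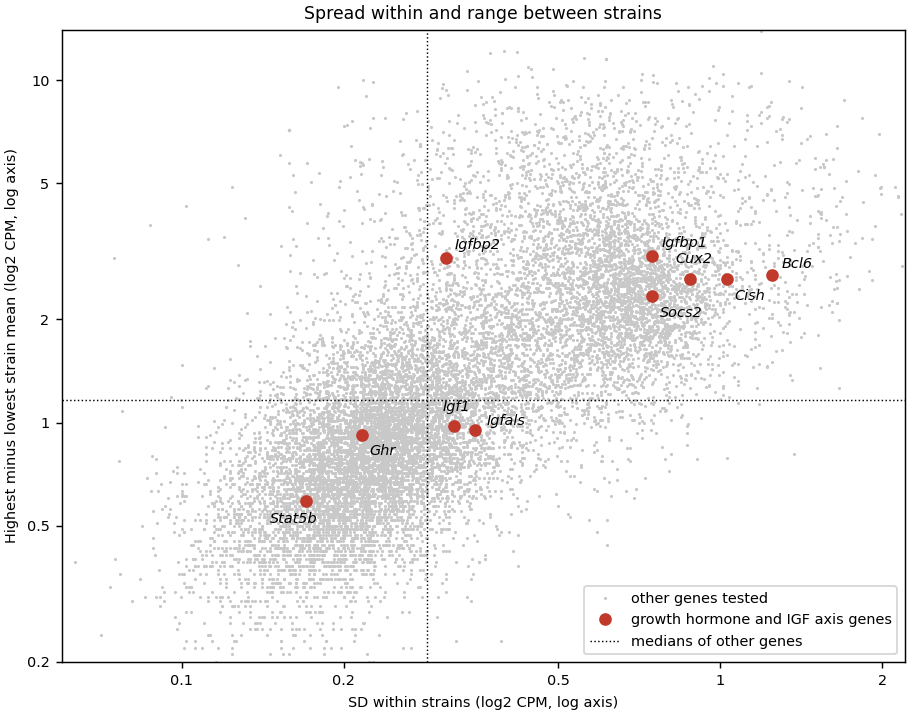
Range between the highest and lowest strain mean (y axis) against the SD within strains (x axis), both of log2 CPM on log axes, for the 10 genes (red) and the other tested genes (grey); dotted lines are medians of the other genes. Igfbp2 combines a range of 3.03 with an SD of 0.309, while Cish (1.03) and Bcl6 (1.25) are the red points farthest to the right.

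Within strains, libraries with more Ghr tended to have more Igf1, and libraries with more Igf1 tended to have more Igfals. Each library's log2 CPM was set against the mean of its strain, and all 45 pairs of the 10 genes were correlated over the 27 libraries, with p from 100000 permutations of libraries within strains. Ghr and Igf1 had Pearson's r = 0.608 (permutation p = 0.00052, adjusted over the 45 pairs 0.0234) and Spearman's rho = 0.686 (permutation p = 0.00171, adjusted 0.0409). Without the 2 libraries farthest from the median of Ghr, r was 0.584. Igf1 and Igfals had r = 0.754 (permutation p = 0.00113, adjusted 0.0254) and rho = 0.737 (adjusted 0.0409), and r = 0.775 without the 2 farthest libraries. In 7 of 9 strains 1 library was highest in both Igf1 and Igfals. For Ghr and Igf1 this held in 5 strains, while in 2 strains the library lowest in Ghr was the highest in Igf1.

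Socs2 and Ghr tended to run in opposite directions, a pair that passed by rho but not by r and was not run under the alternatives. Their r was -0.728 (permutation p = 0.00505, adjusted 0.0757) and their rho -0.709 (permutation p = 0.0033, adjusted 0.0495), with r = -0.616 without the 2 farthest libraries. The library highest in Ghr was the lowest in Socs2 in 6 of 9 strains. Socs2 and Cish, both STAT5-induced inhibitors, had r = 0.528 (permutation p = 0.0306, adjusted 0.229). Cish and Bcl6 had r = -0.474 (permutation p = 0.0715, adjusted 0.402), and the library lowest in Cish was the highest in Bcl6 in 6 strains. In all, 2 of 45 pairs passed by r, 3 by rho, and 7 had an unadjusted p under 0.05 by r. The genes of a library share its depth, scaling and cell makeup. How often pairs of other genes correlate in this way was not computed, so these counts do not show a link particular to these genes. The count by r ran from 0 (without A/J replicate 3) to 4 (without A/J replicate 1) when a library was left out. Ghr with Igf1 then had r from 0.576 to 0.739 and Igf1 with Igfals from 0.697 to 0.806, and the 2 calls by r were lost in 6 and 8 of the 27 fits, with adjusted p of up to 0.0693 and 0.123. With replicate number as a block, r was 0.579 and 0.736 and neither pair passed (permutation test, adjusted p = 0.15 and 0.0688).

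**Figure D4:**
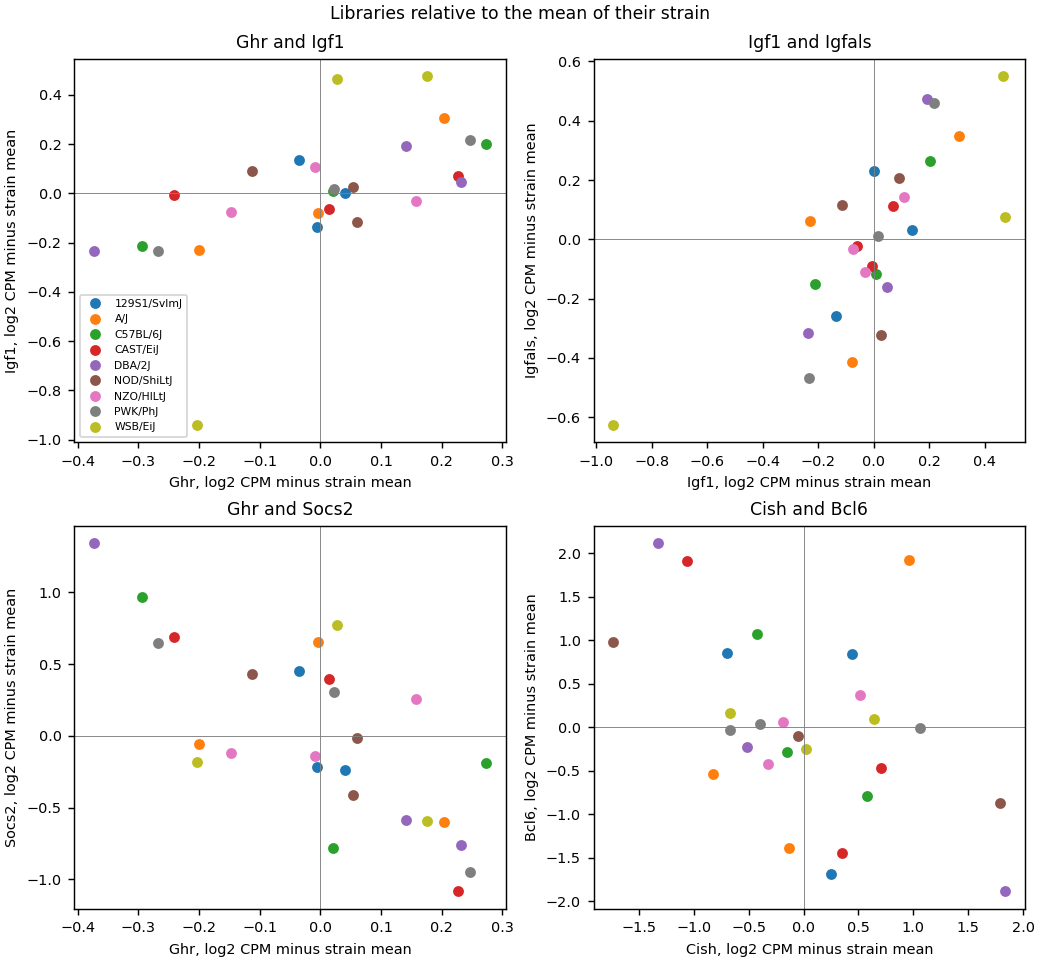
Each point is 1 of 27 libraries, placed by its log2 CPM minus the mean of its strain for the 2 genes on the axes, and coloured by strain. Ghr with Igf1 (r = 0.608) and Igf1 with Igfals (r = 0.754) slope upward, Ghr with Socs2 (r = -0.728) slopes downward, and WSB/EiJ replicate 4 is the lowest point for Igf1.

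Of 18 other genes of growth hormone receptor and JAK-STAT signalling, 17 were tested and 8 of these differed among strains, beside 74.2% of all genes. Their median range was 0.60 on the log2 scale against 1.16. Socs1 did not pass the filter. Grb10, an adaptor that dampens insulin and IGF receptor signalling, was highest in 129S1/SvImJ (8.82 ± 0.807 CPM) and lowest in C57BL/6J (0.848 ± 0.0716 CPM, adjusted p = 1.35e-11). Stat3 was highest in CAST/EiJ (141 ± 30.5 CPM) and lowest in NOD/ShiLtJ (71.6 ± 7.28 CPM, adjusted p = 0.000264). The adaptor Grb2 spanned 20.3 ± 2.57 CPM in A/J to 30.6 ± 2.01 CPM in NZO/HlLtJ (adjusted p = 0.000558). Jak2 itself averaged 10.9 CPM and had an adjusted p of 0.0744.

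Of 13 other genes of the IGF system, 8 were tested and 7 of these differed, beside 74.2% of all genes, with a median range of 1.99 on the log2 scale against 1.16. Igf2, Pappa, Pappa2, Stc1 and Stc2 did not pass the filter. Igfbp5, which like the product of Igfbp3 can join the complex with the acid-labile subunit, was highest in NZO/HlLtJ (24.7 ± 1.68 CPM), the strain lowest in Igfbp2, and lowest in 129S1/SvImJ (1.73 ± 0.607 CPM, adjusted p = 1.41e-08). Insr, the insulin receptor, was highest in A/J (231 ± 36.2 CPM) and lowest in CAST/EiJ (81.1 ± 1.87 CPM, adjusted p = 4.18e-07), the strains at the ends of the Ghr order. Igfbp4 averaged 1694 CPM over all libraries, from 1212 ± 224 in PWK/PhJ to 2626 ± 112 in WSB/EiJ (adjusted p = 8.04e-05). Igf2r, which clears IGF2, ran from 40.6 ± 9.60 CPM in NZO/HlLtJ to 95.5 ± 9.22 CPM in WSB/EiJ (adjusted p = 9.18e-05). The IGF1 receptor transcript Igf1r averaged 0.193 CPM, at most 3 counts in any DBA/2J library.

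**Figure D5:**
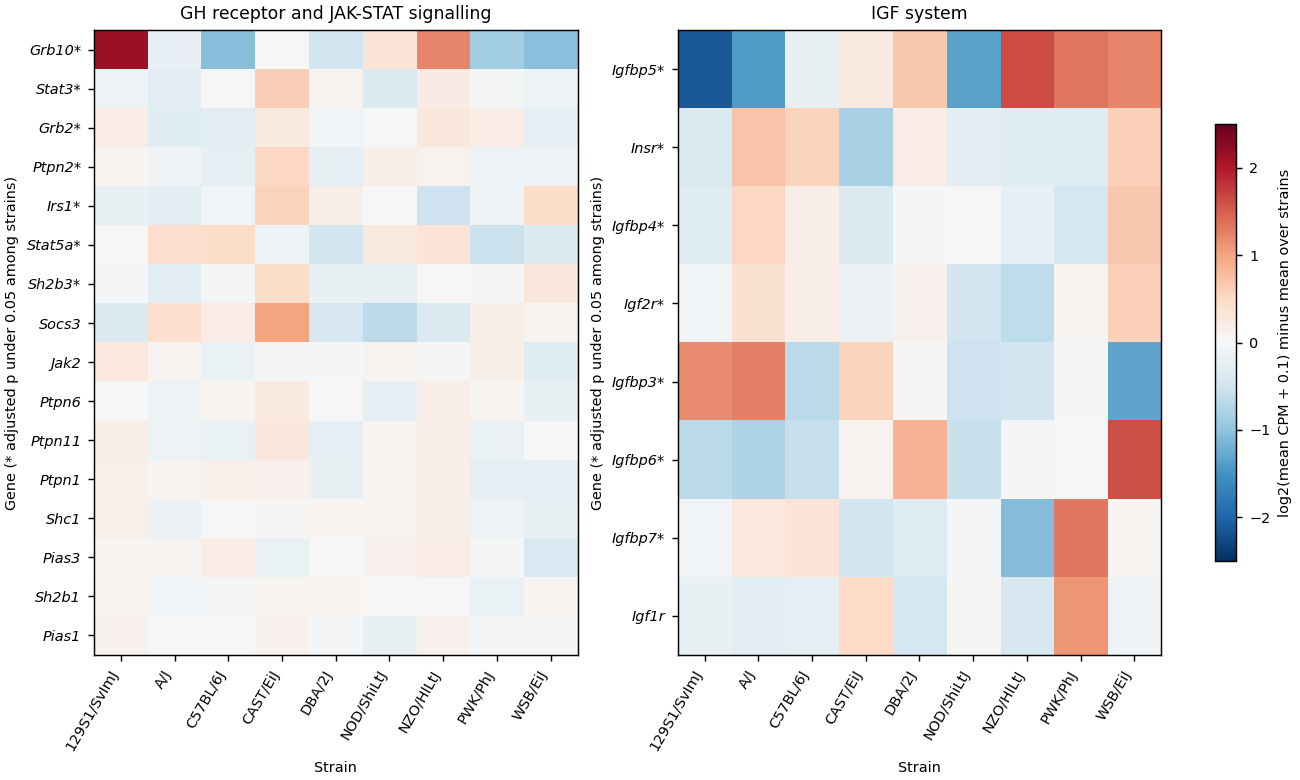
Strain means as log2(mean CPM + 0.1) minus the mean over the 9 strains, for 16 genes of growth hormone receptor and JAK-STAT signalling (left) and the 8 tested genes of the IGF system (right), ordered by adjusted p; asterisks mark an adjusted p under 0.05 among strains. Grb10 in 129S1/SvImJ is the darkest red cell, and Igfbp5 is red in NZO/HlLtJ and blue in 129S1/SvImJ.

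Genes listed as following the sex pattern of growth hormone differed among these female mice in nearly all cases. The lists were chosen with earlier results of these data known, so the counts describe the listed genes only. Some male-biased genes, such as Cyp4a12b and Susd4, were near 0 in their lowest strain. They passed the filter through strains where they were high, which made a call among strains likely beforehand. Of 20 female-biased genes, 19 passed (all but Slc22a26), beside 74.2% of all genes, with a median range of 4.39 on the log2 scale, and of 17 male-biased genes all 15 that were tested passed, with a median range of 5.19. Moxd1 and Cib3 were not tested. CAST/EiJ, the strain highest in Cux2 and lowest in Ghr, was highest in the female-biased sulfotransferase Sult3a1 (1825 ± 141 CPM, against 23.4 ± 6.11 in A/J) and lowest in the female-biased hydroxyacid oxidase Hao2 (1.99 ± 1.27 CPM, against 112 ± 14.4 in DBA/2J). It was also highest in the male-biased C4a (206 ± 21.3 CPM, lowest in PWK/PhJ at 5.78 ± 2.15) and Susd4 (30.1 ± 9.64 CPM, lowest in NZO/HlLtJ at 0.0766 ± 0.0514).

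PWK/PhJ, the strain with the highest mean Bcl6, was highest in 3 and lowest in 4 of the 15 male-biased genes tested, and highest in 4 and lowest in 2 of the 20 female-biased genes. CAST/EiJ was highest in 4 and lowest in 2 of the male-biased genes, and highest in 3 and lowest in 3 of the female-biased genes. Among the female-biased genes other strains were most often at the ends: C57BL/6J was highest in 5 and 129S1/SvImJ lowest in 5. CAST/EiJ and PWK/PhJ also had the largest shares of all genes called against the other 8 strains (34.6% and 32%). Among the named genes, PWK/PhJ was highest in the male-biased Cyp7b1 (864 ± 78.8 CPM, lowest in 129S1/SvImJ at 38.3 ± 10.9) and Cyp4a12b (198 ± 113 CPM, lowest in NOD/ShiLtJ at 0.0873 ± 0.122). The female-biased Cyp2b13 and Cyp2b9 were both lowest in 129S1/SvImJ (2.54 ± 0.879 and 2.49 ± 0.552 CPM) and highest in DBA/2J (531 ± 207 CPM) and WSB/EiJ (1543 ± 66.5 CPM). Sult3a1, Cyp2b9, Cyp2b13, Cyp4a12b and C4a belong to families of near-identical copies, and their counts were not whole in 24 to 27 libraries. Adjusted p (edgeR) of these 8 genes ran from 2.31e-15 to 1.12e-07.

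Some genes tracked an axis gene over the 27 libraries. Among 10528 genes ranked by Pearson's r of log2 CPM, those most like Ghr were Slco2b1 (0.925) and Tmx3 (0.908), like Stat5b Ybx3 (0.884) and Leo1 (0.872), and like Igfbp2 Scarb1 (0.862) and Pqlc1 (0.855). For Igf1 they were Mbl2 (0.781) and Zdhhc13 (0.758), for Igfals Nectin2 (0.846) and Tmem203 (0.832), and for Socs2 Ppm1d (0.824) and Akirin1 (0.811). Igfbp1, Cish, Bcl6 and Cux2 had looser partners: Tceanc2 (0.69) and St3gal5 (0.686), Unc45a (0.701) and Foxa2 (0.687), Arrdc3 (0.648) and R3hdm4 (0.607), and Rbfox2 (0.653) and Uck2 (0.645). These values describe likeness over libraries that share strain, depth and scaling, and were not tested.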

How the data were processed

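Expression was measured in 27 libraries of hepatocyte RNA from female mice of 9 strains. Per the labels' protocols, polyadenylated RNA was selected for a TruSeq kit, and no strand-specific step is named. The authors deposited 1 table of estimated counts (expected counts) per Ensembl gene, not scaled to depth, of which 14.7% of values were not whole. The aligner, the counter and the genome given to each strain are not given in the sources used here, and reads of divergent strains may be counted less completely; the submitters' processing notes name GRCm38, FastQC 0.11.5 and DESeq2.

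Counts were rounded (library totals changed by at most 0.00026%) and fitted in R 4.3.3 with edgeR 4.0.16 and limma 3.58.1: filterByExpr by strain, TMM factors (0.722 to 1.226), a quasi-likelihood model with strain as the only factor, Benjamini-Hochberg adjustment over all genes (and over all 36 pairs, or all 9 strains, as 1 family), called under 0.05. Library totals of 17015956 to 35078511 counts set the precision, and counting error leaves out PCR duplication. Log2 CPM used a prior count of 2. Symbols and coordinates are from GENCODE M21, promoters from RefSeq. The fit was tested on simulated data.

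The genes and lists were chosen with earlier results of these data known. All 10 genes are named, with the 4 lowest adjusted p of each list other than the cell type markers and the 2 genes most like each axis gene; Stat5a, Jak2, Igf1r and Slc22a26 were named after their values were seen. Of the 4 from the growth hormone signalling list, 1 is not reported here. The lists were growth hormone signalling, the IGF system, female-biased and male-biased genes, insulin and FOXO1 genes, immediate early genes and markers of 6 cell types. Alternatives were DESeq2 1.42.0, median-of-ratios size factors, no filter, a mean of at least 10 counts, replicate number as a block, Kupffer and endothelial markers as covariates and each library left out. The correlations within strains and their alternatives were added after the data were seen.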

Additional observations from a re-analysis of the deposited data

How the results depend on the processing

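None of the 74 called contrasts of the axis genes and neither called pair of correlated genes changed sign under the alternatives run; other correlations, likeness values and the order of strains in the lists were not run under them. Of the 10 axis genes, 9 differed among strains with DESeq2 (79% of all genes did), 7 with median-of-ratios size factors (74.7%), with a mean of at least 10 counts (76.2%) or with the replicate block (64.6%), 10 without a filter (46.4%) and 5 with the marker covariates (67.8%); leaving out a library gave 6 to 10 (69.7% to 75.6%; 10 without DBA/2J replicate 4). Calls of strain pairs numbered 83 without a filter (13.3% of such tests over all genes) and 48 to 82 with a library left out (20.5% to 24.2%), against 55 (23.4%). Calls against the other 8 strains numbered 14 to 23 with a library left out (21.3% to 25.2%), against 19 (24%). Of 74 called contrasts, 72 were kept with DESeq2, 74 with median-of-ratios factors and with the stricter filter, 71 without a filter and 48 with covariates, which lost 9 against the other 8 strains and 17 pairs. Igfals and Bcl6 passed with DESeq2 (adjusted p = 0.018 and 0.0408), and Igfals, Bcl6 and Cish without a filter (0.0151, 0.00105 and 0.00108). Immediate early genes, which respond within minutes to handling and stress, had 2 of 8 tested genes called, beside 74.2% of all genes, Egr1 and Fos (adjusted p = 0.0395 and 0.0429; Atf3 and Zfp36 had 0.0722 and 0.105, and Fosb did not pass the filter). That count was 7 without a filter, 4 with covariates and 0 to 5 with a library left out, beside the shares of all genes given above. The cause was not tested.

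Replicate numbers did not pair the libraries: deviations from strain means had a mean r of 0.01 over 76 pairs with the same number (-0.293 to 0.275, 17 of them over 0.1) and -0.00315 with different numbers, and 7 of 27 libraries were most like 1 of their own number. With the replicate block, 56 pair tests (18.6% over all genes), 14 tests against the other 8 strains (19.4%) and 53 of the 74 called contrasts passed; among those that did not were Ghr and Stat5b in CAST/EiJ (-0.48 and 0.33, adjusted p = 0.0763 and 0.0951), Ghr and Igf1 in A/J (0.32 and 0.41, 0.111 and 0.12), Igfbp1 and Igfbp2 in C57BL/6J (1.05 and 0.45, 0.0719 and 0.114) and Socs2 in PWK/PhJ (-1, 0.12), each against the other 8 strains; Igf1 then had an adjusted p of 0.0635 and Cish 0.0105, and of the pairs of genes correlated within strains 0 passed (0 to 4 with a library left out, against 2). The 3 libraries per strain and the spread of Cish, Bcl6, Cux2, Socs2 and Igfbp1 within strains limit these comparisons more than depth does: the lowest count of any axis gene in a library was 36.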
